A study of Mus musculus with 2 samples.

Results

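The 50 genes described here drive DNA replication and cell division, and they were chosen by symbol: 21 code for the replication machinery, 23 for mitosis and 6 for the G1/S switch. All 50 were among the 32285 genes of the count tables, and all 50 had UMIs (unique molecular identifiers, each counting 1 captured transcript) in both libraries. The libraries were single-cell RNA-seq of cranial neural crest cells (CNCCs) sorted from E11.5 mouse heads. Control embryos (Tfap2HET) carried 1 floxed and 1 wild-type allele of each gene (Tfap2a wt/flox; Tfap2b wt/flox), and mutant embryos (Tfap2NCKO) carried floxed alleles only (Tfap2a flox/flox; Tfap2b flox/flox). Embryos of both groups carried the Wnt1:CRE transgene and 2 copies of the mTmG reporter at the r26 locus, and eGFP-positive cells were sorted, so that dorsal brain cells in which Wnt1:CRE is active were also taken. Each genotype was 1 library of cells pooled from 2 embryos. No difference between genotypes therefore has a replicate check, no p-value is given, and intervals are exact 95% counting intervals that cover counting error only.

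A cell commits to division when D-type cyclins (Ccnd1, Ccnd2, Ccnd3) and then E-type cyclins (Ccne1, Ccne2) switch on kinases that free E2F transcription factors such as E2f1. Cdc6 and Cdt1 load the Mcm2 to Mcm7 helicase on DNA, Cdc45 and the GINS complex (Gins2) activate it, and Pola1, Prim1, Pcna, Rfc2 and Fen1 act in DNA synthesis, with nucleotides supplied by Rrm1, Rrm2 and Tyms. Genes of mitosis peak later and include Cdk1 with its cyclins (Ccna2, Ccnb1, Ccnb2), the Aurora and Polo kinases (Aurka, Aurkb, Plk1), the spindle checkpoint (Bub1, Bub1b), motors and spindle proteins (Kif11, Kif23, Tpx2, Hmmr, Nusap1) and the machinery of mitotic exit (Cdc20, Ube2c). In the embryonic face the CNCC-derived mesenchyme divides actively, whereas neurons leave the cell cycle as they differentiate.

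The promoters of the replication and mitosis genes held different short sequences. Windows of 300 bases (250 before to 50 after the RefSeq start site, GRCm38.p6, read on the gene's strand) were at hand for 41 of the 50 genes, and each motif was searched on both strands. The E2F-type sequences TTTGGCGC or TTTCCCGC were found for 7 of the 18 replication genes with a window (38.9%) and for 0 of the 20 mitosis genes, against 1.80% of all 27025 genes. The cell cycle homology region (CHR), written TTTGAA or TTCGAA, was found for 16 of the 20 mitosis genes (80.0%) and 4 of the 18 replication genes (22.2%), against 21.7% of all genes. A CCAAT box (CCAAT) was found for 16 of the 20 mitosis genes and 13 of the 18 replication genes (72.2%), against 41.1% of all genes. A CHR and a CCAAT box were found together for 14 mitosis genes (70.0%), 3 replication genes (16.7%) and 8.61% of all genes. Each match is a match of letters only.

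The windows of 5 genes are shown, with the searched motifs in capitals on either strand. Mcm3 (chr1:20820263-20820562, minus strand) and Mcm5 (chr8:75109259-75109558, plus strand) are helicase genes with an E2F-type sequence, Cdk1 (chr10:69352863-69353162, minus strand) and Top2a (chr11:99024140-99024439, minus strand) are mitosis genes with CHR and CCAAT sequences, and Nusap1 (chr2:119618048-119618347, plus strand) is a mitosis gene with none of these letters in its window.
Mcm3: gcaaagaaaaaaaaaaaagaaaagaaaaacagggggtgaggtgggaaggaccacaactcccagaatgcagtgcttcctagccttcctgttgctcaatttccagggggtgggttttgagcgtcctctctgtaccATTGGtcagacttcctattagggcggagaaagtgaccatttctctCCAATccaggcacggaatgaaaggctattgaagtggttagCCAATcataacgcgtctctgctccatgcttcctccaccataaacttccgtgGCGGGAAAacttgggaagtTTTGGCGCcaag
Mcm5: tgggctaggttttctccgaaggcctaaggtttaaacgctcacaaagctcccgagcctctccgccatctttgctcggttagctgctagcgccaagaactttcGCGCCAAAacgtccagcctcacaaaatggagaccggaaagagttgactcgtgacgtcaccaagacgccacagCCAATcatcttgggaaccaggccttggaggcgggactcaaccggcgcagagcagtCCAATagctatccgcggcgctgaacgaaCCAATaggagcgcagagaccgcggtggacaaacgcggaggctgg
Cdk1: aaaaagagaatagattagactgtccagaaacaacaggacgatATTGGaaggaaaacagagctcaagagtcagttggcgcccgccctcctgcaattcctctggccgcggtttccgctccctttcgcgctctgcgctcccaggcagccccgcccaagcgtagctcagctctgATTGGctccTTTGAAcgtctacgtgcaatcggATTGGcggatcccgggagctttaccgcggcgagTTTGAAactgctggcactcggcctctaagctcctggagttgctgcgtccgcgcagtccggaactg
Top2a: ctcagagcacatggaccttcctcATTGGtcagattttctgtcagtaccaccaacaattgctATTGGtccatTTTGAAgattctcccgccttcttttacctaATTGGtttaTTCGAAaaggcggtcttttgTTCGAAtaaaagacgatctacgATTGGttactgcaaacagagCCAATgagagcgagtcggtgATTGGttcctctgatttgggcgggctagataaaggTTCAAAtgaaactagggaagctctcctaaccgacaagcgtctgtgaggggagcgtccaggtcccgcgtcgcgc
Nusap1: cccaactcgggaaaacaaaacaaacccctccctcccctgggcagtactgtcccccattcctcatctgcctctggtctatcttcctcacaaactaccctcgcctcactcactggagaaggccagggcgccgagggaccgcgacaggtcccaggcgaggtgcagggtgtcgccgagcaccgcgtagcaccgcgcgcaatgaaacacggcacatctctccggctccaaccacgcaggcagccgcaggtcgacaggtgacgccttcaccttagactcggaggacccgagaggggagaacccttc
In Mcm3 the E2F-type sequences began 19 and 38 bases after the start site, in Mcm5 the single one lay before it and ahead of the CCAAT boxes, and the windows of Cdk1 and Top2a each held more than 1 CHR and more than 1 CCAAT sequence.

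The control library held 83542433 UMIs in 6148 barcodes and the mutant library 79206144 UMIs in 6063 (5 barcodes in common), and 5625 control and 5587 mutant cells were kept. Cells were grouped without the 50 genes or other cell cycle genes and named from markers: 3715 control and 2730 mutant cells were mesenchyme-like, 773 and 1248 brain progenitor-like, 832 and 1324 neuron-like, and 259 and 201 glia-like. The 9 mesenchyme markers summed to 1955 and 2078 CPM in mesenchyme-like cells (control and mutant, in counts per 1000000 UMIs, CPM), and the 11 brain progenitor markers to 2390.1 and 2442 CPM, the 10 neuron markers to 11544 and 11269.6 CPM and the 9 glia markers to 2267 and 3031 CPM in their own classes. Another 46 control and 84 mutant cells grouped with the mesenchyme but were led by brain progenitor genes such as Sox2, and 34 and 60 of them were called doublets, so they were set apart. Xist was found in 98.8% of control cells, and 4 Y-linked genes had 2 UMIs in control and 11842 in mutant cells, so sex and genotype cannot be told apart. Pola1 is the 1 member on the X chromosome. Tfap2a was at 19.4 and 13.6 CPM (-0.51, -0.66 to -0.36) and Tfap2b at 56.3 and 46.6 CPM (-0.27, -0.35 to -0.19) in control and mutant mesenchyme-like cells, where the bracket gives the log2 ratio of mutant over control and its interval, as in all pairs of CPM values below. Counts at transcript ends need not show a deletion elsewhere in a gene.

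Brain progenitor-like cells had the highest summed levels of both programmes and neuron-like cells the lowest. The 21 replication genes together made up 3569 CPM in control (3403 in the mutant) brain progenitor-like cells, 2989 CPM (2888) in mesenchyme-like, 2156 CPM (2225) in glia-like and 949 CPM (867) in neuron-like cells. The 23 mitosis genes were at 5029.8 CPM (4577), 3887 CPM (3630.0), 3281 CPM (3607) and 1008 CPM (1038) in the same order. In the mutant, mitosis genes in glia-like and mesenchyme-like cells did not differ beyond counting error (log2 glia-like over mesenchyme-like -0.01, -0.04 to 0.02). All 21 replication and all 23 mitosis genes were lower in neuron-like than in mesenchyme-like cells of both libraries, where 51.5% (control) and 50.3% (mutant) of all genes with at least 100 UMIs in 1 or both groups were lower. In brain progenitor-like cells 20 replication and 21 mitosis genes were higher in control and 19 and 18 in the mutant, where 42.6% and 43.9% of all genes were lower. In glia-like cells 20 and 22 were lower in control and 19 and 13 in the mutant, against 58.2% and 54.5% of all genes. The place of glia-like cells for mitosis depended on which cells were counted. Without those over 1000 CPM of neuron markers, a choice made after seeing the data, their mitosis genes were at 3886 CPM (3799 in the mutant). That is near the mesenchyme-like level in control and above it in the mutant. Their replication genes were then at 2654 CPM (2254), still below the mesenchyme-like level.

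**Figure D1:**
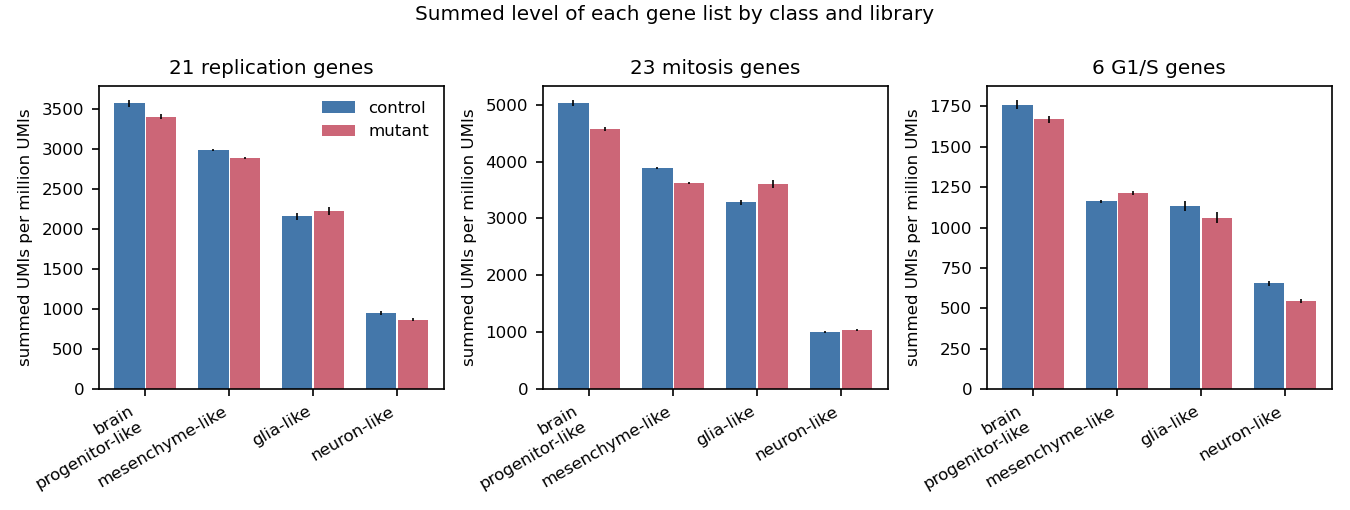
Summed CPM of the 21 replication, 23 mitosis and 6 G1/S genes in 4 classes of cells, for the control and the mutant library (1 each), with 95% counting intervals. Brain progenitor-like cells are highest and neuron-like cells lowest for each list, and the G1/S genes keep 654 CPM in control neuron-like cells against 1161 CPM in mesenchyme-like cells.

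Mcm5, Pcna and Top2a showed the same order of classes on the CPM scale. Mcm5, a subunit of the replicative helicase (chromosome 8, 75109569 to 75128439, GRCm38), was at 162 CPM (147 in the mutant) in brain progenitor-like, 152 CPM (145) in mesenchyme-like, 107 CPM (113) in glia-like and 31.6 CPM (28.1) in neuron-like cells. Pcna, the sliding clamp of DNA polymerases, was at 374 CPM (360.4), 301 CPM (269), 212 CPM (215) and 91.1 CPM (80.3). Top2a, the topoisomerase that untangles chromosomes, was at 611 CPM (538), 557 CPM (523), 399.9 CPM (495) and 125 CPM (117). E2f1, by contrast, was higher in neuron-like cells, at 50.6 CPM (48.4), than in mesenchyme-like cells, at 32.7 CPM (29.8).

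The programmes were spread over cells in different ways. Cells were thinned to 5000 UMIs each, which left out 121 control and 173 mutant cells with fewer. A mesenchyme-like cell held a median of 14 and 13 replication UMIs in control and mutant, and 0.0273% and 0.224% of cells held none. Mitosis UMIs had medians of 12 and 11, and 5.27% and 6.46% of cells held none (intervals 4.57 to 6.04% and 5.56 to 7.46%). The 10% of cells with the most mitosis UMIs held 30.6% and 31.3% of them, against 19.9% and 20.1% for replication. In neuron-like cells the median cell held 3 and 3 replication UMIs but 0 and 0 mitosis UMIs, 53.7% and 56.1% of cells held no mitosis UMI, and the top 10% of cells held 83.0% and 83.7% of them. For replication the top 10% of neuron-like cells held 41.5% and 38.5%.

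**Figure D2:**
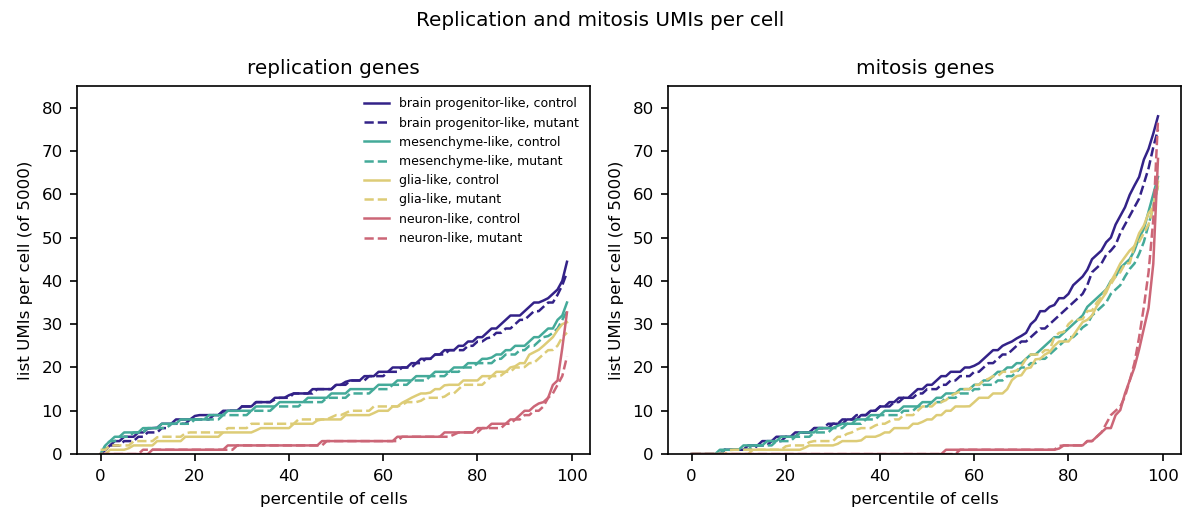
Replication and mitosis UMIs per cell, out of 5000, against the percentile of cells from the lowest to the highest, for 4 classes and both libraries. In neuron-like cells mitosis UMIs stay at 0 for most cells and climb steeply among the highest, while most cells hold a few replication UMIs. The control and mutant medians of a class differ most for mitosis in glia-like cells, at 8 and 11 UMIs.

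A Top2a UMI was found in 65.8% and 63.8% of control and mutant mesenchyme-like cells at this depth (78.8% and 76.1% without thinning), in 60.3% and 58.5% of brain progenitor-like, 52.9% and 53.0% of glia-like and 13.6% and 12.8% of neuron-like cells. An Mcm5 UMI was found in 50.0% and 47.3% of mesenchyme-like (81.8% and 77.3% without thinning), 49.1% and 46.9% of brain progenitor-like, 38.9% and 41.0% of glia-like and 12.4% and 10.4% of neuron-like cells. Neuron-like cells, with median depths of 9621.5 and 9658 UMIs against 14444 and 14294.5 in mesenchyme-like cells, are the class that should hold the least. The 11 brain progenitor markers summed to 610 and 698 CPM in neuron-like cells, against 97.0 and 104 CPM in mesenchyme-like cells. The neuron-like class also held 30 control and 73 mutant called doublets. The part of such cells and of free RNA in these shares was not tested. In each class the intervals of the control and mutant shares overlapped for both genes, which is not a test of their difference.

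Which members were found in the same cells was described with Top2a and Mcm5 as anchors. In mesenchyme-like cells with a Top2a UMI, 21 of the other 22 mitosis genes were higher in control and 22 in the mutant than in cells without one, with median log2 ratios of 1.66 and 1.80, where 50.1% and 52.2% of all genes were higher. Aurkb, a kinase that corrects chromosome attachments, had the largest ratio, 2.83 (2.52 to 3.15) in control and 3.01 (2.64 to 3.42) in the mutant. Ccnb2, a mitotic cyclin, had the smallest, -0.09 (-0.22 to 0.04) in control and 0.12 (-0.04 to 0.27) in the mutant. In neuron-like cells the ratio of Ccnb2 was 3.80 in control and 3.25 in the mutant.

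The replication genes were divided in the same comparison, with 12 of 21 higher in control and 15 in the mutant. Among the higher were Pola1, the catalytic subunit of the priming polymerase (0.90 in control and 1.25 in the mutant), Cdc45 (1.01 in control and 1.11 in the mutant), Rrm2, a subunit of ribonucleotide reductase (0.65 in control and 0.87 in the mutant), and Fen1, which trims Okazaki fragments (0.62 in control and 0.68 in the mutant). The helicase genes Mcm2, Mcm3, Mcm4 and Mcm6 lay between -0.33 and -0.01 in both libraries. Ung, a uracil-DNA glycosylase, was lowest, at -0.77 (-0.96 to -0.57) in control and -0.55 (-0.79 to -0.31) in the mutant.

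With Mcm5 as the anchor the lists changed places. In mesenchyme-like cells with an Mcm5 UMI, all 20 other replication genes and all 6 G1/S genes were higher and all 23 mitosis genes lower in both libraries, where 46% and 43.6% of all genes were higher. The medians were 0.44 in control and 0.38 in the mutant for replication, and -0.46 and -0.34 for mitosis. Ccne2 (1.25 in control and 0.70 in the mutant), Ung (1.07 in control and 0.75 in the mutant) and the licensing factor Cdc6 (0.95 in control and 0.97 in the mutant) had the largest ratios, and Ube2c, which helps to degrade mitotic cyclins, was at -0.81 in control and -0.48 in the mutant. In neuron-like cells both lists were higher in anchor cells. With an Mcm5 UMI all 23 mitosis genes were higher, with medians of 1.61 and 1.55, and with a Top2a UMI all 21 replication and all 22 mitosis genes were, with mitosis medians of 4.26 and 4.11. Of all genes, 45.7% (control) and 46.3% (mutant) were higher in neuron-like cells with an Mcm5 UMI and 41.3% and 44.8% in those with a Top2a UMI. Every member was counted in the comparisons by anchor, whatever its UMIs. The shares of all genes cover genes with at least 100 UMIs in 1 or both groups of cells. Cells with and without an anchor come from the same library, and these ratios are a description.

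**Figure D3:**
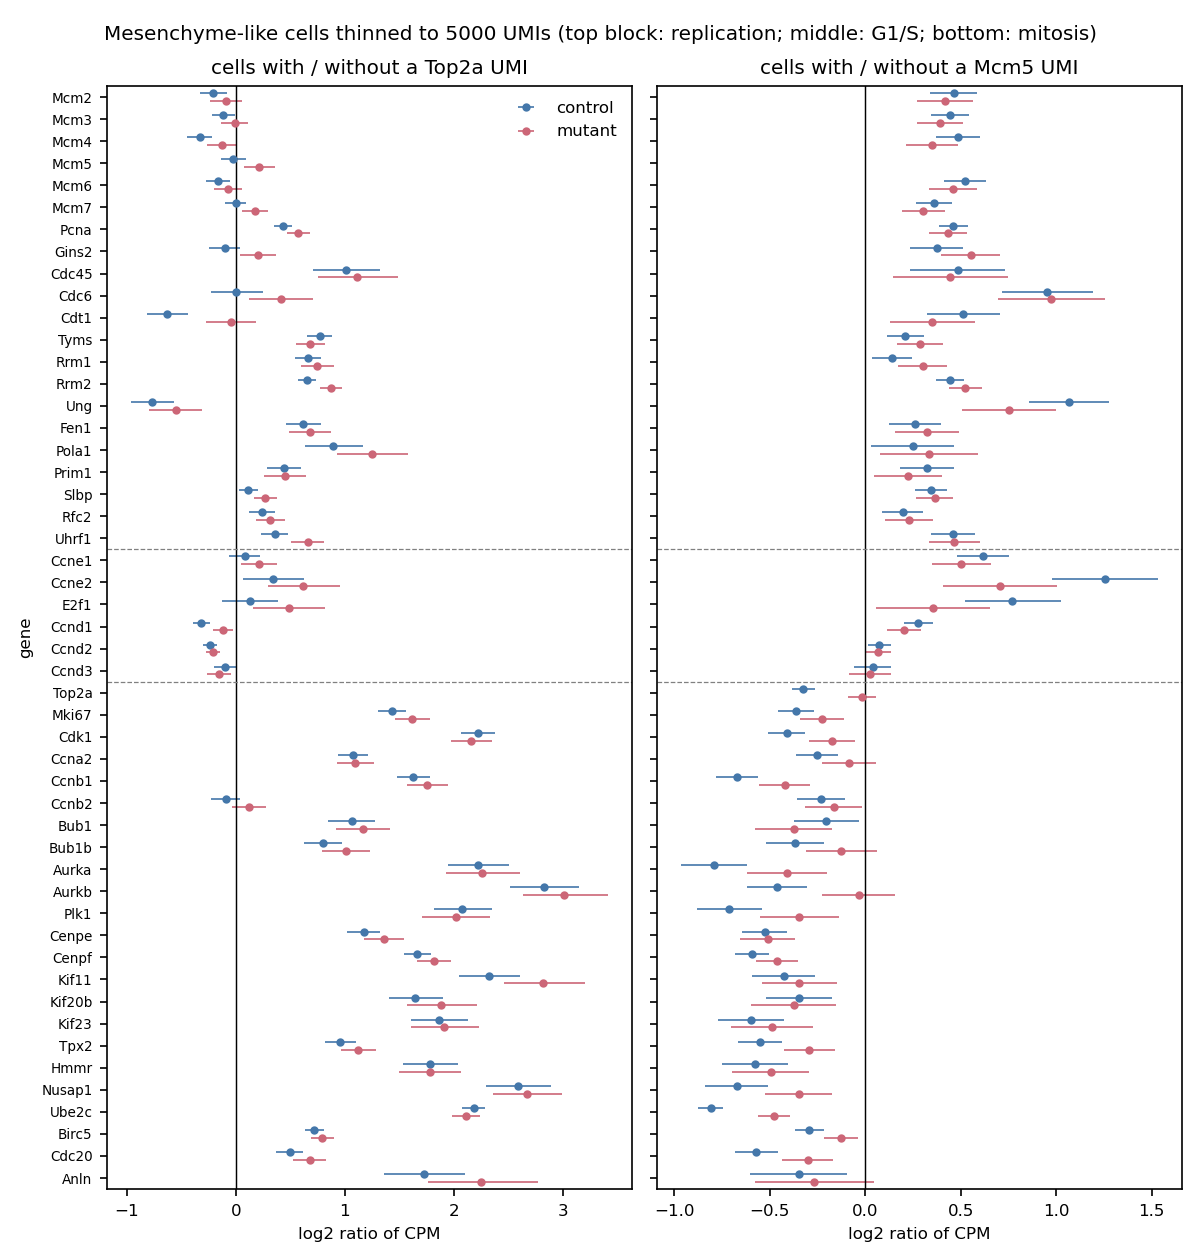
Log2 ratio of the CPM of each gene in mesenchyme-like cells with over those without a Top2a UMI or an Mcm5 UMI, in cells thinned to 5000 UMIs, for the control and the mutant library, with 95% counting intervals. With Top2a the mitosis genes lie right of 0, apart from Ccnb2 near 0, and the replication genes on either side of it, and with Mcm5 the replication and G1/S genes lie right of 0 and the mitosis genes left of it.

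In mesenchyme-like cells, the comparison asked whether cell cycle transcripts of the facial mesenchyme differed without Tfap2a and Tfap2b. The summed mitosis genes were at 3887 and 3630.0 CPM (-0.10, -0.11 to -0.09) in control and mutant, a change of -6.62%, and the replication genes at 2989 and 2888 CPM (-0.05, -0.06 to -0.04), a change of -3.39%. No member differed by 1.5-fold (0 of 50 tested), where 2.89% of all genes did. In direction, 16 of 21 replication genes (median log2 ratio -0.03) and 20 of 23 mitosis genes (median -0.10) were lower in the mutant, where 45.4% of all genes were and the median over all genes was 0.01. Over the alternatives tried the replication value ran from -0.09 to -0.05 and the mitosis value from -0.13 to -0.08.

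Among replication genes Prim1, Tyms, Pcna and Rrm1 had the lowest ratios. Prim1, the primase subunit that starts each new strand, was at 90.3 and 77.4 CPM (-0.22, -0.29 to -0.16), Tyms, which makes thymidylate, at 199.6 and 175 CPM (-0.19, -0.24 to -0.15), Pcna at 301 and 269 CPM (-0.16, -0.20 to -0.13) and Rrm1, the large subunit of ribonucleotide reductase, at 175 and 159 CPM (-0.14, -0.18 to -0.09). At the other end, Gins2, a subunit of the GINS complex, was at 93.0 and 106 CPM (0.18, 0.13 to 0.24), Uhrf1, which maintains DNA methylation through replication, at 141 and 148 CPM (0.07), Rrm2 at 343 and 349.5 CPM (0.03) and Slbp, which binds histone mRNA, at 260.1 and 263 CPM (0.01). The log2 ratios of Mcm2 to Mcm7 lay between -0.09 and 0.0015, with Mcm5 at 152 and 145 CPM (-0.06, -0.11 to -0.02).

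Among mitosis genes Cdk1, Ube2c, Cdc20 and Bub1b had the lowest ratios. Cdk1, the kinase that triggers mitosis (chromosome 10, 69335146 to 69352938, minus strand), was at 233 and 201 CPM (-0.21, -0.25 to -0.17), Ube2c at 523 and 457 CPM (-0.20, -0.22 to -0.17), Cdc20, an activator of the ligase that ends mitosis, at 165 and 145 CPM (-0.19, -0.24 to -0.14) and the checkpoint kinase Bub1b at 89.3 and 80.3 CPM (-0.15, -0.22 to -0.09). Ccnb1 was at 181 and 164 CPM (-0.14), Mki67, the gene of the Ki-67 marker, at 220.1 and 203 CPM (-0.12) and Top2a at 557 and 523 CPM (-0.09). Nusap1, which bundles spindle microtubules, ran against the list at 80.4 and 95.4 CPM (0.25, 0.19 to 0.31), followed by Bub1 at 67.2 and 70.6 CPM (0.07), Birc5 at 339 and 343 CPM (0.02) and Hmmr at 74.6 and 74.5 CPM (-0.0015). Gins2 shares 2758 exonic bases with Gse1 on the opposite strand, Ube2c 592 with Tnnc2 and Nusap1 172 with Oip5, and reads of such pairs can be told apart only where counting used strand.

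**Figure D4:**
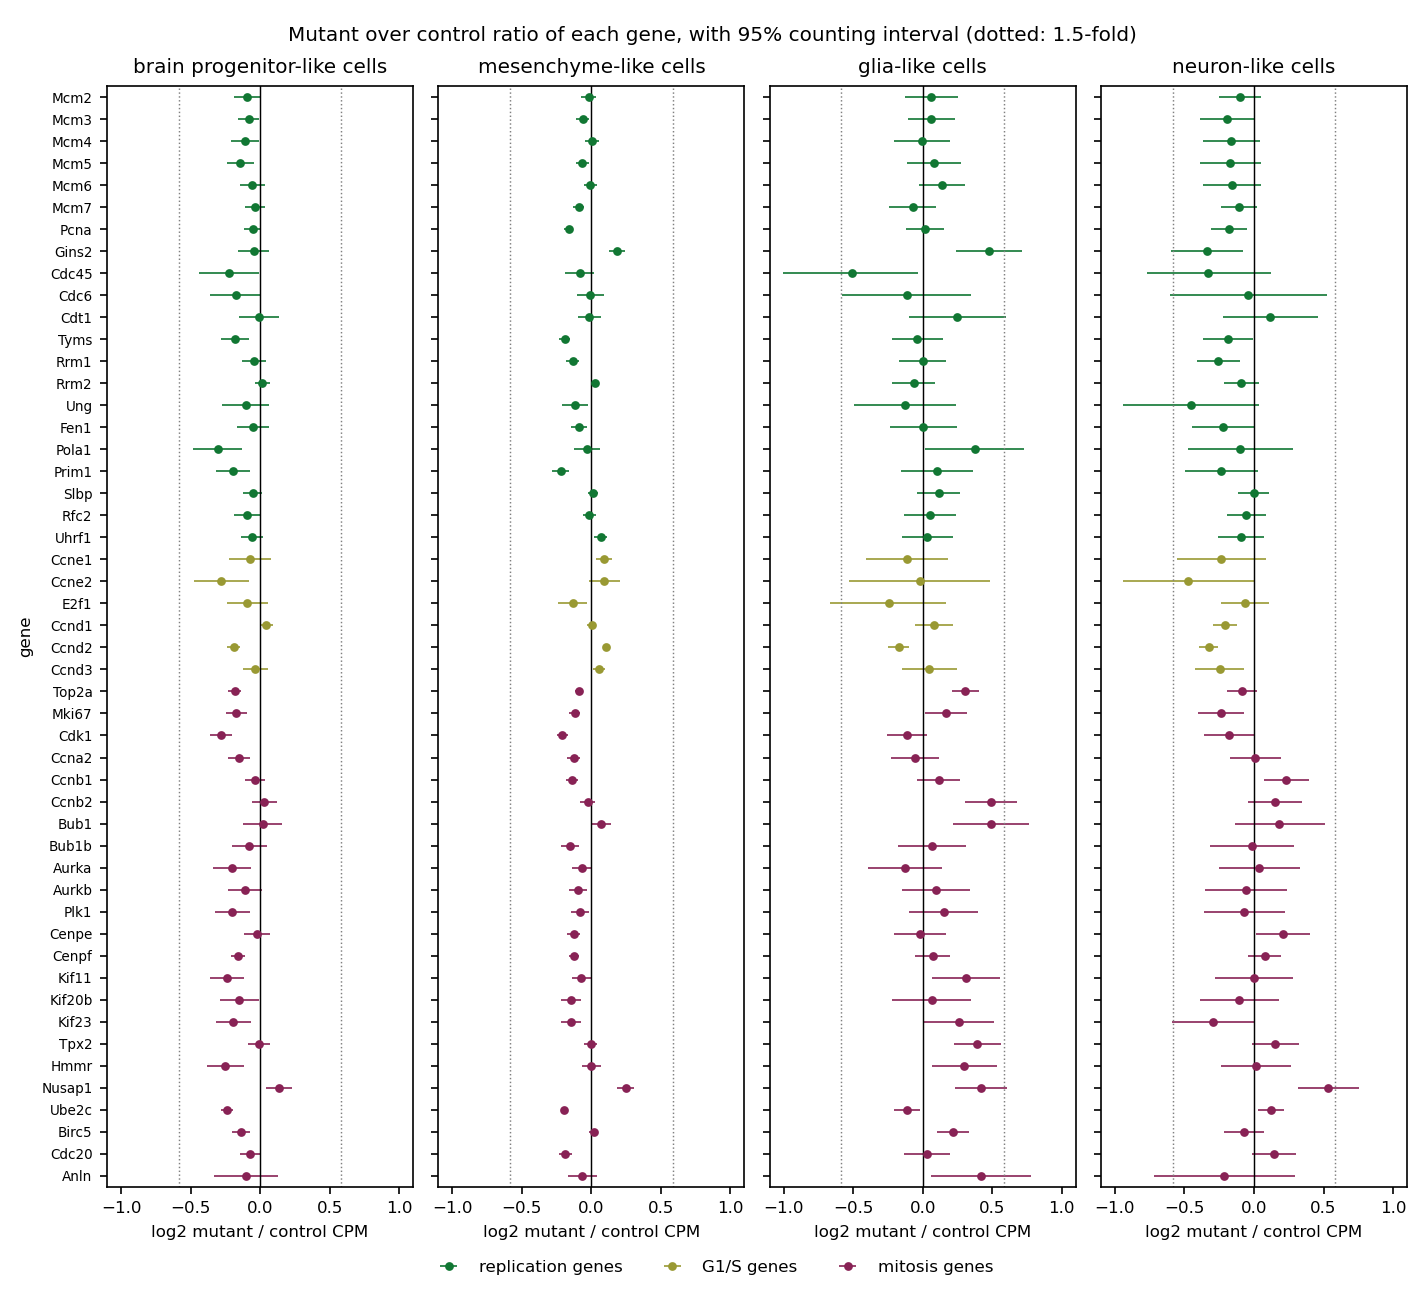
Log2 ratio of mutant over control CPM for each of the 50 genes in 4 classes of cells, with 95% counting intervals. Most genes lie left of 0 in mesenchyme-like and brain progenitor-like cells, in each class Nusap1 lies right of 0 and Cdk1 left of it, and no gene that was tested lies past the dotted 1.5-fold lines.

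The mesenchyme-like cells split into 6 clusters, in which the lists differed by different amounts. Cluster 3 was frontonasal-like (led by Pax7, with Alx1; 759 control and 327 mutant cells). Its mitosis genes were at 4099 and 3525 CPM (-0.22, -0.24 to -0.19), a change of -14.0%, with 22 of 23 lower where 49.6% of all genes were, and its replication genes at 2979.8 and 2987 CPM (0.0037, -0.02 to 0.03), with 10 of 21 lower. The kinetochore motor Cenpe was at 179 and 136 CPM (-0.39, -0.52 to -0.27), Ube2c at 549 and 422 CPM (-0.38, -0.45 to -0.31), Bub1b at 95.6 and 74.0 CPM (-0.37, -0.54 to -0.20) and Ccnb1 at 192 and 151 CPM (-0.35, -0.47 to -0.23), while Rrm2 was at 344 and 403 CPM (0.23, 0.15 to 0.30), 5 genes picked after their values were seen. Over the alternatives the mitosis value of this cluster ran from -0.27 to -0.21.

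Cluster 1 was mandibular-like (led by Hand2os1 and Hand2; 764 and 405 cells). Its mitosis genes were at 3769 and 3414 CPM (-0.14, -0.17 to -0.12), with 18 of 23 lower where 54.8% of all genes were, and its replication genes at 2948 and 2983 CPM (0.02, -0.01 to 0.04), with 8 of 21 lower. With finer clusters its best match gave a mitosis value of -0.02. That match had a Jaccard index (cells shared over cells in either cluster) of 0.55, so the value is not that of the same cells. Cluster 0 was maxillary-like (led by Lhx6 and Osr2; 906 and 696 cells). Its mitosis genes were at 3969 and 3741 CPM (-0.09, -0.10 to -0.07), with 16 of 23 lower where 48.1% of all genes were, and its replication genes at 3126 and 3125 CPM (-0.00029, -0.02 to 0.02), with 8 of 21 lower.

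In clusters 5 and 2 both lists were lower in the mutant. Cluster 5 (led by Cyp26a1 and Shisa3; 285 and 440 cells) is left without a region name, since the 6 second arch markers summed to 116 and 56.8 CPM there and 103 and 158 CPM in cluster 4. It had replication genes at 2806 and 2502 CPM (-0.17, -0.20 to -0.13) and mitosis genes at 4194 and 3785 CPM (-0.15, -0.18 to -0.12), and 18 of 21 and 18 of 23 were lower where 52.3% of all genes were. The helicase gene Mcm3 was at 183 and 134 CPM (-0.44, -0.59 to -0.30) there and Cdk1 at 249.6 and 194 CPM (-0.37, -0.49 to -0.24), both picked after their values were seen. Over the alternatives its mitosis value ran from -0.28 to -0.10. Cluster 2 could not be named (led by Vtn, Zic1 and Tagln; 564 and 551 cells) and had the lowest level of both lists among the 6 clusters, with replication genes at 2470.3 and 2318 CPM (-0.09, -0.12 to -0.06) and mitosis genes at 3147 and 3004 CPM (-0.07, -0.09 to -0.04). There 16 of 21 and 14 of 23 were lower, where 51.7% of all genes were, and its mitosis value ran from -0.16 to -0.02 over the alternatives. The 10 mural markers summed to 288 and 511 CPM and the 7 frontonasal markers to 828 and 560.1 CPM in cluster 2, and their part in its values was not tested.

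Cluster 4 differed in direction for mitosis. It was led by Dlx3 and Dlx4 but also by Hoxa2, and its markers gave it the mandibular-like name (437 and 311 cells). Its mitosis genes were at 4094 and 4483 CPM (0.13, 0.10 to 0.16), with 19 of 23 higher where 44% of all genes were lower, and its replication genes at 3429.5 and 3287 CPM (-0.06, -0.09 to -0.03), with 16 of 21 lower. Over the alternatives its mitosis value ran from -0.03 to 0.14. It was below 0 only without integration of the libraries, where the best match gave -0.03. That match had a Jaccard index of 0.55 and was led by genes of cluster 4 (Dlx3, Hoxa2) and of cluster 5 (Cyp26a1, Shisa3). Its value is therefore not that of cluster 4 alone. Cdk1 was lower in all 6 clusters, from -0.37 in cluster 5 to -0.04 in cluster 4, and Prim1 and Tyms were also lower and Gins2 higher in all 6. These genes and Nusap1 were named for their ratios in the mesenchyme-like class, of which the clusters are parts. Agreement in sign is therefore in part given by that choice. How many of all genes keep 1 sign in all 6 was not counted. Nusap1 was higher in 5 of the 6 and at 72.1 and 65.0 CPM (-0.15, -0.33 to 0.03) in cluster 3. With the cluster shares fixed at the mean of both libraries, 60.3% of the replication difference and 96.6% of the mitosis difference in mesenchyme-like cells remained.

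**Figure D5:**
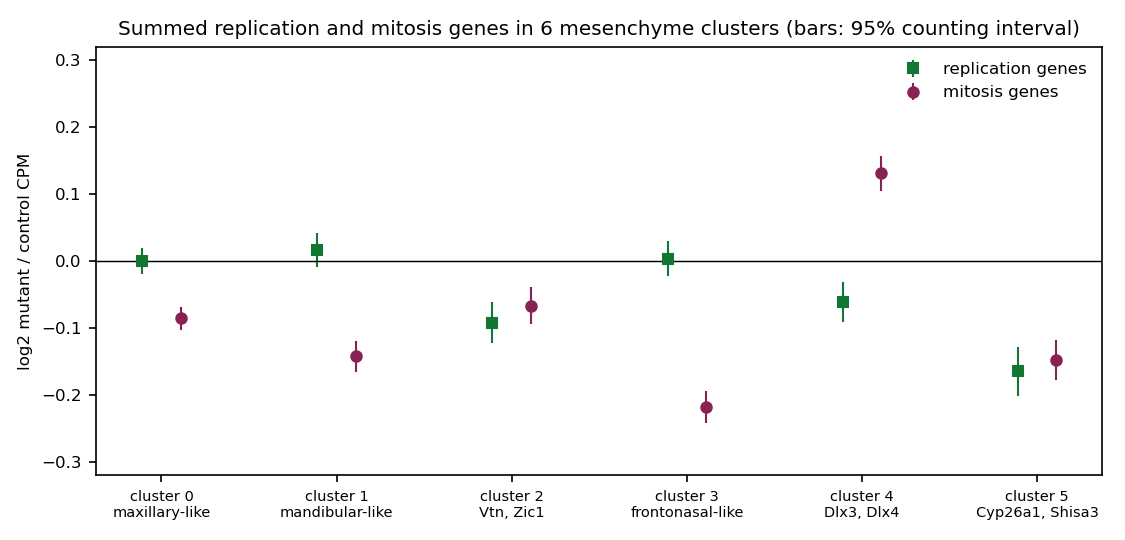
Summed replication and mitosis genes in 6 mesenchyme clusters, as log2 ratios of mutant over control CPM with 95% counting intervals. The mitosis value is lowest in the frontonasal-like cluster 3 at -0.22 and above 0 in cluster 4 at 0.13, and the replication value is lowest in cluster 5 at -0.17.

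In brain progenitor-like cells more of the genes were lower in the mutant. Mitosis genes were at 5029.8 and 4577 CPM (-0.14, -0.15 to -0.12) and replication genes at 3569 and 3403 CPM (-0.07, -0.09 to -0.05), with 20 of 23 and 20 of 21 lower where 51.5% of all genes were. None of the 50 differed by 1.5-fold, where 1.51% of all genes did. Cdk1 was at 229 and 189 CPM (-0.28, -0.36 to -0.20) and Hmmr, a spindle assembly factor, at 85.6 and 71.9 CPM (-0.25, -0.38 to -0.12). Pola1 was at 49.8 and 40.3 CPM (-0.31, -0.48 to -0.13) and Cdc45 at 32.4 and 27.7 CPM (-0.22, -0.44 to -0.01). At the other end Nusap1 was at 165 and 181 CPM (0.14, 0.05 to 0.23), Ccnb2 at 173 and 177 CPM (0.03), Rrm2 at 466 and 471 CPM (0.02) and Cdt1 at 66.5 and 66.1 CPM (-0.01). Over the alternatives the mitosis value ran from -0.18 to -0.11.

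In neuron-like cells the replication genes were lower in the mutant, and the mitosis genes had no settled direction. Replication genes were at 949 and 867 CPM (-0.13, -0.17 to -0.09), with 17 of the 18 that had enough UMIs lower, where 41.9% of all genes were. Mitosis genes were at 1008 and 1038 CPM (0.04, 0.01 to 0.08), with 10 of 22 lower, but with every cell given equal weight the value was -0.10, so no direction is given. None of the 45 members tested differed by 1.5-fold, where 2.03% of all genes did. Gins2 was at 24.2 and 19.1 CPM (-0.34, -0.59 to -0.08) and Rrm1 at 65.5 and 54.8 CPM (-0.26, -0.41 to -0.10), while Cdt1 was at 12.0 and 13.0 CPM (0.12, -0.23 to 0.46) and Slbp at 110.4 and 110.1 CPM (-0.0027). Kif23, a motor of cytokinesis, was at 17.9 and 14.6 CPM (-0.30, -0.59 to 0.0033) and Mki67 at 54.9 and 46.5 CPM (-0.24, -0.40 to -0.07), while Nusap1 was at 25.8 and 37.3 CPM (0.53, 0.31 to 0.76) and Ccnb1 at 52.9 and 62.2 CPM (0.23, 0.07 to 0.39). The 9 blood markers summed to 7388 and 1.47 CPM in these cells, 5 control and 0 mutant barcodes held over 1% haemoglobin UMIs, and without those barcodes the mitosis value was 0.09 and the replication value -0.11.

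In glia-like cells the direction depended on which cells were counted. Over all glia-like cells mitosis genes were at 3281 and 3607 CPM (0.14, 0.10 to 0.17) and replication genes at 2156 and 2225 CPM (0.05, 0.0027 to 0.09), with 18 of 23 and 14 of 21 higher, where 47.1% of all genes were lower. None of the 49 members tested differed by 1.5-fold, where 9.6% of all genes did. The 10 neuron markers summed to 2606 and 493 CPM in the same cells, with none at 0, and 84 of 259 control but 11 of 201 mutant cells held over 1000 CPM of them. Without those cells, a choice made after seeing the data, mitosis genes were at 3886 and 3799 CPM (-0.03, -0.07 to 0.0034), with 13 of 23 lower, and replication genes at 2654 and 2254 CPM (-0.24, -0.28 to -0.19), with 18 of 20 lower, where 52.6% of all genes were.

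Single genes of the glia-like cells are given over all cells and then without the cells rich in neuron markers. Ccnb2 was at 95.6 and 134 CPM (0.49, 0.30 to 0.68) and then at 109 and 143 CPM (0.39, 0.19 to 0.59). The checkpoint kinase Bub1 was at 47.0 and 66.0 CPM (0.49, 0.22 to 0.76) and then at 55.0 and 69.5 CPM (0.34, 0.05 to 0.63). Gins2 was at 62.1 and 86.4 CPM (0.48, 0.24 to 0.71) and then at 80.1 and 86.9 CPM (0.12, -0.13 to 0.37). Cdk1 was at 210.1 and 194 CPM (-0.12, -0.26 to 0.03) and then at 260.2 and 203 CPM (-0.36, -0.51 to -0.21). Top2a was at 399.9 and 495 CPM (0.31, 0.21 to 0.40) and then at 488 and 519 CPM (0.09, -0.01 to 0.19), so that its interval included 0 only without those cells. Pola1 was at 29.5 and 38.2 CPM (0.37) and then at 38.1 and 39.4 CPM (0.05), Aurka at 63.9 and 58.6 CPM (-0.12) and then at 69.2 and 60.7 CPM (-0.19), Ung at 33.7 and 30.8 CPM (-0.13) and then at 43.8 and 30.8 CPM (-0.50), and Mcm7 at 148 and 141 CPM (-0.07) and then at 179 and 144 CPM (-0.32).

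Across the 4 classes, which share the same libraries, Cdk1 was lower in the mutant in each, with intervals that excluded 0 in mesenchyme-like and brain progenitor-like cells, and Nusap1 was higher in each, with intervals above 0. Over all kept cells replication genes were at 2775 and 2572 CPM (-0.11, -0.12 to -0.10) and mitosis genes at 3666 and 3321 CPM (-0.14, -0.15 to -0.14). In the 4 classes together, without the cells set apart, they were at 2769 and 2560 CPM and at 3651 and 3303 CPM. With the shares of the 4 classes fixed, 47.5% and 61.0% of these last differences remained.

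The G1/S genes differed in direction between classes. Ccnd2, a D-type cyclin, was at 752 and 659 CPM (-0.19, -0.24 to -0.15) in brain progenitor-like, 712 and 631 CPM (-0.17, -0.25 to -0.10) in glia-like and 331 and 264 CPM (-0.33, -0.39 to -0.26) in neuron-like cells, but at 496 and 534 CPM (0.11, 0.08 to 0.13) in mesenchyme-like cells. Within the mesenchyme its ratio ran from -0.08 in cluster 1 to 0.18 in cluster 2. Ccnd1 was at 666 and 688 CPM (0.05) in brain progenitor-like, 310.4 and 311 CPM (0.0027) in mesenchyme-like, 219.9 and 232 CPM (0.08) in glia-like and 199 and 172 CPM (-0.21, -0.29 to -0.12) in neuron-like cells. Ccnd3 was at 192 and 199 CPM (0.05) in mesenchyme-like and 50.4 and 42.5 CPM (-0.25, -0.42 to -0.07) in neuron-like cells.

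The E-type cyclins and E2f1 had lower counts. Ccne1 was at 104 and 111 CPM (0.09, 0.03 to 0.14) in mesenchyme-like cells, with the largest ratio in cluster 1 at 105 and 132 CPM (0.34, 0.21 to 0.46), and at 62.1 and 59.0 CPM (-0.07) in brain progenitor-like cells. Ccne2 was at 26.3 and 28.1 CPM (0.09, -0.02 to 0.20) in mesenchyme-like and 39.2 and 32.3 CPM (-0.28, -0.48 to -0.08) in brain progenitor-like cells. E2f1 was at 32.7 and 29.8 CPM (-0.14, -0.24 to -0.03) in mesenchyme-like and 67.3 and 63.1 CPM (-0.09, -0.24 to 0.06) in brain progenitor-like cells. As a sum, the 6 genes were at 1161 and 1212 CPM (0.06, 0.05 to 0.08) in mesenchyme-like cells. With the mesenchyme cluster shares fixed, 37.4% of this difference remained (19.2 of 51.4 CPM). The sum was at 1760.1 and 1669.9 CPM (-0.08, -0.10 to -0.05) in brain progenitor-like and 654 and 546 CPM (-0.26, -0.31 to -0.21) in neuron-like cells. In glia-like cells it was at 1134 and 1061 CPM (-0.10, -0.16 to -0.03). It was at 1356 and 1030.4 CPM (-0.40, -0.46 to -0.33) there without the cells rich in neuron markers.

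Other genes of the same pathways, listed by function, are given by counts. Of 44 other replication genes, 38 were lower in mutant mesenchyme-like cells (median -0.07; 45.4% of all genes), 33 in brain progenitor-like cells (median -0.05; 51.5% of all genes) and 31 of 36 tested in neuron-like cells (median -0.14; 41.9% of all genes). Of 67 other mitosis genes, 51 were lower in mesenchyme-like cells (median -0.05), 49 in brain progenitor-like cells (median -0.08) and 17 of 57 in neuron-like cells (median 0.05), to be read against the same shares of all genes. In the frontonasal-like cluster 3, 58 of the 67 were lower (median -0.16), where 49.6% of all genes were. Over all glia-like cells 13 of 57 other mitosis genes were lower (median 0.17), where 47.1% of all genes were, and their sum was at 7981 and 8084 CPM (0.02, -0.01 to 0.04) without the cells rich in neuron markers.

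Genes that hold the cell cycle back summed to 871 and 960.4 CPM (0.14, 0.12 to 0.16) in mesenchyme-like cells, mostly from Cdkn1c, a CDK inhibitor, at 649.6 and 738 CPM (0.18, 0.16 to 0.21). By count, 3 of the 10 tested were lower in mesenchyme-like cells, where 45.4% of all genes were. Their sum was not higher in every mesenchyme cluster. It was at 873 and 811 CPM (-0.11, -0.14 to -0.07) in cluster 0 and 537 and 522 CPM (-0.04, -0.12 to 0.04) in cluster 4. The ratio of the sum reached 0.28 in cluster 1, but 5 of the 6 genes tested there were lower (median -0.07), where 54.8% of all genes were. In cluster 3 the ratio was 0.09 with 4 of 6 lower, where 49.6% of all genes were. In clusters 2 and 5 it was 0.27 and 0.17, with 2 of 7 lower in each, where 51.7% and 52.3% of all genes were. In brain progenitor-like cells Cdkn1a, the p21 inhibitor, was at 11.3 and 20.4 CPM (0.85, 0.53 to 1.18) and Cdkn2c at 10.7 and 7.10 CPM (-0.59). In neuron-like cells these genes summed to 2915 and 2772 CPM (-0.07, -0.09 to -0.05), the highest level of the 4 classes. In glia-like cells Cdkn1c was at 555 and 287 CPM (-0.95, -1.06 to -0.84), Btg2, an antiproliferative gene of neural progenitors, at 102 and 26.3 CPM (-1.95, -2.30 to -1.62) and Gadd45g at 103 and 21.1 CPM (-2.29, -2.68 to -1.93). Without the cells rich in neuron markers their log2 ratios were -0.40 (-0.54 to -0.26), -1.50 (-2.07 to -0.95) and -1.83 (-2.36 to -1.34). The list as a whole was at 1005 and 597 CPM (-0.75, -0.83 to -0.67) and then at 627 and 526 CPM (-0.25, -0.35 to -0.16). Members with ratios above 0 included Cdkn1a, at 7.57 and 15.9 CPM (1.07, 0.44 to 1.71) and then at 5.62 and 16.7 CPM (1.57, 0.79 to 2.42) without those cells, and Btg1, at 119.7 and 133 CPM (0.15, -0.03 to 0.33) and then at 118 and 136 CPM (0.21, 0.01 to 0.41). The counts of Cdkn1a were low, with 19 control and 51 mutant UMIs without those cells. Cdkn1a was not among the 7 genes of this list with at least 100 UMIs over all glia-like cells.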

How the data were processed

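The authors' deposited filtered matrices of raw UMI counts per gene and cell (Cell Ranger 6.0.0 per the file headers, mm10) were used as they were. The submitters' notes name Seurat 4.3.0. Barcodes were dropped when mitochondrial transcripts passed 10%, or when fewer than 200 or more than 7500 genes were detected. Cells of both libraries were integrated and clustered in Seurat 5.3.0 (R 4.3.3) without the 50 genes and other cell cycle genes, Xist, Tsix, 4 Y-linked genes, haemoglobin genes, Tfap2a and Tfap2b. The class resolution was 0.05, and the mesenchyme resolution of 0.3 was chosen after seeing clusters. Classes were named from fixed markers. Doublets called by Scrublet were kept. UMIs were summed per class and library and scaled to counts per 1000000 (CPM), and ratios have exact conditional binomial, levels exact Poisson and shares Clopper-Pearson intervals. Genes with at least 100 UMIs in 1 or both libraries entered counts of genes. For cells with and without an anchor UMI, every member was counted. Named genes were, in the mesenchyme, the 4 highest and 4 lowest ratios and 3 highest levels of each list, the 2 highest and 2 lowest in each other class, and 11 fixed genes. Positions are from GENCODE on GRCm38 and promoter sequences from RefSeq. The ratio calculation was tested on simulated data. The members and lists were chosen with earlier results of these data known.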

Additional observations from a re-analysis of the deposited data

Results flagged for a closer look

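Some lists and genes had ratios of opposite sign in 2 classes or clusters, each with a counting interval that excluded 0, and the difference between the classes was not tested. All values here are log2 ratios of mutant over control. Replication genes were at -0.131 in neurons and 0.0457 in glia. Mitosis genes were at -0.14 in brain progenitor-like and 0.14 in glia-like cells and at -0.22 in mesenchyme cluster 3 and 0.13 in cluster 4. G1/S genes were at -0.26 in neuron-like and 0.0624 in mesenchyme-like cells, and 37.4% of the latter difference remained with cluster shares fixed. Genes that hold the cycle back were at -0.75 in glia-like and 0.14 in mesenchyme-like cells. When glia-like cells rich in neuron markers were left out, the glia-like values were -0.24 (-0.28 to -0.19) for replication, -0.03 (-0.07 to 0.0034) for mitosis and -0.25 (-0.35 to -0.16) for genes that hold the cycle back. The contrast between neuron-like and glia-like replication was then not of opposite sign.

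Between brain progenitor-like and glia-like cells, Top2a was at -0.18 and 0.31, Pola1 at -0.31 and 0.37, Kif11 at -0.24 and 0.31, Kif23 at -0.19 and 0.26, Hmmr at -0.25 and 0.30 and Birc5 at -0.14 and 0.22. Between neurons and glia, Gins2 was at -0.34 and 0.48 and Mki67 at -0.24 and 0.17. The glia-like values include the cells rich in neuron markers. When those cells were left out, Top2a was at 0.09, Pola1 at 0.05, Kif11 at 0.05, Kif23 at 0.09 and Hmmr at 0.17 in glia-like cells. Birc5 was then at -0.01, Gins2 at 0.12 and Mki67 at 0.0011, and the intervals of all these genes included 0. Between mesenchyme-like and neuron-like cells, Ccnb1 was at -0.14 and 0.23, Cenpe at -0.13 and 0.21, Ccnd2 at 0.11 and -0.33 and Ccnd3 at 0.0536 and -0.25. Between brain progenitor-like and neuron-like cells, Ube2c was at -0.24 and 0.12 and Ccnd1 at 0.0457 and -0.21.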

How the results depend on the processing

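The values are log2 ratios of mutant over control. In mesenchyme-like and brain progenitor-like cells both lists, and in neuron-like cells the replication list, kept their direction under each alternative tried, and 0 members passed 1.5-fold in any class with TMM scaling or a count minimum of 30. Signs changed for mitosis in neuron-like cells, for both lists in glia-like cells, for mitosis in mesenchyme cluster 4 and for replication in clusters 0 (-0.0202 to 0.0276), 1 (-0.0242 to 0.0254) and 3 (-0.0282 to 0.0273), where the values lay near 0. Among the other clusters mitosis ran from -0.158 to -0.0236 in cluster 1, -0.158 to -0.0245 in cluster 2 and -0.277 to -0.102 in cluster 5. The values of classes, of fixed shares and of mitosis in cluster 4 that moved or changed sign follow, and causes were not tested. Alternatives that remove named cells show only how a value depends on the cells counted. With every cell given equal weight, replication was at -0.0857 (mesenchyme-like), -0.25 (neuron-like), -0.0528 (glia-like) and -0.0523 (mesenchyme with fixed cluster shares) and mitosis was at -0.12 (mesenchyme-like), -0.12 (brain progenitor-like), -0.10 (neuron-like) and 0.19 (glia-like). With cells thinned to 5000 UMIs, replication was at -0.0816 (mesenchyme-like) and -0.0472 (mesenchyme with fixed cluster shares) and mitosis was at -0.12 (mesenchyme-like), -0.11 (brain progenitor-like) and 0.11 (neuron-like). With TMM scaling in edgeR 4.0.16, replication was at -0.076 (mesenchyme-like), -0.0245 (glia-like) and -0.0562 (mesenchyme with fixed cluster shares) and mitosis was at -0.13 (mesenchyme-like), 0.0665 (glia-like) and -0.12 (mesenchyme with fixed cluster shares). With every member given equal weight, replication was at -0.0998 (brain progenitor-like) and mitosis was at -0.0804 (mesenchyme-like) and 0.17 (glia-like). Without doublets, replication was at -0.21 (neuron-like). With cell cycle genes allowed in clustering, replication was at -0.19 (neuron-like) and mitosis was at -0.16 (brain progenitor-like), -0.0217 (neuron-like) and -0.0705 (mesenchyme with fixed cluster shares). Without integration, replication was at -0.17 (neuron-like) and mitosis was at -0.18 (brain progenitor-like) and -0.0312 (mesenchyme cluster 4). With finer clusters, replication was at -0.17 (neuron-like) and mitosis was at -0.18 (brain progenitor-like) and -0.0325 (neuron-like). Without cells over 1000 CPM of neuron markers, replication was at -0.24 (glia-like) and mitosis was at -0.0328 (glia-like). With barcodes over 7500 genes kept, mitosis was at 0.17 (neuron-like) and -0.11 (mesenchyme with fixed cluster shares). Without barcodes over 1% haemoglobin, mitosis was at 0.085 (neuron-like). Without the member with the most control UMIs, mitosis was at 0.18 (glia-like). Cluster 3 with cell cycle genes allowed and cluster 5 without integration had no matching cluster and give no value. The match of cluster 4 without integration was also led by genes of cluster 5. The alternatives on members' weights, cluster 6, haemoglobin and neuron markers were chosen after seeing the data. No paired analysis was possible because each genotype was 1 library. With 1 library per group no replicate could be left out.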
